A study of Homo sapiens with 14 samples.

Results

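The loci of SMARCA2 and SMARCA4, the genes of the 2 alternative ATPases of the BAF chromatin remodeling complex, were examined for binding by the complex and by SOX2 in naïve and primed human embryonic stem cells. The 2 genes were taken from 20033 protein-coding genes, each with its GENCODE gene body in hg38 and 60 kb on each side. All peaks of 7 lists that overlapped these windows were members, giving 87 peaks of 222828. Of these, 43 were at SMARCA2 and 44 at SMARCA4, where 18 lay over the body of SMARCA4 and 4 over SPC24. The loci were chosen by the position and fold of a naïve SOX2 peak seen near a SMARCA2 start, so the SOX2 peaks there are given as a description and were not tested.

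The data were ChIP-seq peaks from WIBR3, an established human embryonic stem cell line grown on mouse feeder cells, in a naïve state (5i/L/A medium) and a primed state (conventional medium). Chromatin was precipitated with antibodies to BRG1, BAF155, BRM and SOX2, and each peak was called by the authors against an input of the same state. The 14 samples comprised 10 precipitations, each with a peak list, and 4 inputs. All cells came from this 1 line, and each antibody and state rested on 1 independent list, because the lists of the 2 SOX2 samples of a state held identical coordinates and were counted as 1 sample. There was therefore no replicate error, no comparison between the states was tested, and intervals given for shares (95%, exact Clopper-Pearson) cover counting error only.

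BAF is a multi-subunit machine that uses ATP to slide or evict nucleosomes. Each complex carries a single catalytic subunit, either BRG1, encoded by SMARCA4, or BRM, encoded by SMARCA2. BAF155, encoded by SMARCC1, is a core scaffold subunit found with either ATPase. SOX2 is a high mobility group transcription factor that pairs with OCT4 on composite DNA elements in pluripotent cells. These are bulk measurements, so binding in fewer cells and weaker binding in each cell cannot be told apart.

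SMARCA2 (ENSG00000080503.25) lies on the plus strand at chr9:1980290-2193624 and SMARCA4 (ENSG00000127616.22) on the plus strand at chr19:10960932-11079426. Their windows measured 333 kb and 238 kb. Distances below are from the start of the main (MANE Select) transcript, at position 2015347 for SMARCA2 and 10961030 for SMARCA4. The SMARCA2 gene body begins 35.1 kb upstream of that main start because of 1 annotated transcript. SMARCA2 had 66 distinct annotated starts and SMARCA4 had 47. No other protein-coding gene started within the SMARCA2 window, whereas YIPF2 and TIMM29 were among those that started within that of SMARCA4.

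The sequences under a SOX2 peak at each locus are shown first, as hg38 sequence of the plus strand. The SMARCA2 intron 1 site, chr9:2018922-2019221, is the 300 bp at the midpoint of the naïve SOX2 peak. The SPC24 intron site, chr19:11137710-11138003, is the whole primed SOX2 peak of the SMARCA4 window and lies in the gene of a kinetochore protein that extends past the window edge. Capitals mark SOX cores (CATTGT or CTTTGT on either strand), octamers (ATGCAAAT) and OCT4-SOX2 composite elements with at most 2 mismatches. The composite element contains a SOX core and an octamer, so its matches can overlap theirs.
SMARCA2 intron 1 SOX2 site: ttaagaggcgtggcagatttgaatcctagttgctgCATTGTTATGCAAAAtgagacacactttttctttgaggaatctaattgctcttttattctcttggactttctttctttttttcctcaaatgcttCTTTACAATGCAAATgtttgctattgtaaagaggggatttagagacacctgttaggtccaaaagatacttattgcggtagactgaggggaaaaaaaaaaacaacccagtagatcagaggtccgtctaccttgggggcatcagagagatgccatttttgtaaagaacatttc
SPC24 intron SOX2 site: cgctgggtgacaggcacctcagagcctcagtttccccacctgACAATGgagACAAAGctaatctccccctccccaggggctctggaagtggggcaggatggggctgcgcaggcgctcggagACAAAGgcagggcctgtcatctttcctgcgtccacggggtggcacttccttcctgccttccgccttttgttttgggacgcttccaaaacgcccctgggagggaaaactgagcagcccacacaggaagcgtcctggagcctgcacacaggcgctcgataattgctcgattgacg

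The SMARCA2 intron 1 site held 2 composite elements, 1 with 1 mismatch at chr9:2018957-2018971 and 1 with 2 mismatches at chr9:2019051-2019065. The summit of the primed SOX2 peak was 7 bp from the centre of the former. The naïve summit lay between them, 49 bp from the former and 45 bp from the latter. At least 1 such element was present in 24.0% of the 300 bp windows at the midpoints of all 1940 naïve SOX2 peaks and in 13.4% of those of the 9290 primed peaks. Windows with 2 or more made up 1.13% and 0.431%, respectively. The SPC24 intron site had 3 SOX cores and no octamer. A SOX core was found in 64.9% of naïve and 67.7% of primed SOX2 windows, so its presence is common to the lists. An octamer was found in 15.6% and 10.5%. These matches describe the letters in each window and do not show which factor bound them.

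The promoters at both main starts are shown because BRG1 and BAF155 occupied them in each state. They are the RefSeq windows (GRCh38.p14) up to the base before the annotated starts, at chr9:2015097-2015185 and chr19:10960780-10960931, plus strand. Capitals mark the single KLF match, where KLF was searched as GGGCGGGGC, GGGCGTGGC, GGGTGGGGC or GGGTGTGGC on either strand.
SMARCA2 promoter: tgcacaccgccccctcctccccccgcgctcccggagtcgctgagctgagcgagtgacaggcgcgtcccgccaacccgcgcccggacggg
SMARCA4 promoter: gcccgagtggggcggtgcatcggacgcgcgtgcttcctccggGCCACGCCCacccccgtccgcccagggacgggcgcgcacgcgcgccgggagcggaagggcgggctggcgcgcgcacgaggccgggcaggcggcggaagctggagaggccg

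The SMARCA2 promoter window, with its full 300 bp, had 66.7% G and C and 30 CpG dinucleotides, against 81.3% and 55 for SMARCA4. The median of 35116 RefSeq promoters of this length was 58.7% and 14. A KLF match was present in 18.4% of these promoters. TFAP2 (GCCNNNGGC) occurred in 23.2% of promoters and ZIC (CCTGCTG) in 10.5%. Neither was found in the 300 bp window at the main start of SMARCA2 or SMARCA4. Further RefSeq promoters of the 2 genes were not examined individually.

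At SMARCA2, the outstanding feature was a SOX2 peak in intron 1 that was present in both states. The naïve peak spanned chr9:2018750-2019393, 3.72 kb downstream of the main start, with a fold over input of 31.2 and a −log10 q of 101. It ranked 2 of 1940 naïve SOX2 peaks by fold, whose median was 7.26. The primed peak, chr9:2018714-2019347, had a fold of 24.8 and a −log10 q of 80.2, ranking 47 of 9290, with a list median of 6.73. The pair therefore lay in the upper tail of both lists. The annotated start nearest to the naïve peak, that of transcript SMARCA2-248, was 1082 bp from its midpoint.

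The 2 SOX2 summits were 42 bp apart, against a median of 31 bp over the 930 naïve SOX2 peaks shared with the primed state. Fold was 1.26 times as high in the naïve list as in the primed list at SMARCA2. Over the 930 shared peaks the median of this ratio was 0.871 (interquartile range 0.614 to 1.2), and 39.2% of them exceeded 1. The locus was chosen by its naïve SOX2 fold, and choosing a high naïve fold favours a ratio above 1. Most of the shared peaks with the highest naïve folds also had a ratio above 1, so no naïve preference is read from this value. With 1 list per state, this difference in fold has no replicate error and was not tested. The plot of shared SOX2 peaks places the SMARCA2 site at the top right, among the strongest sites of each state.

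**Figure D1:**
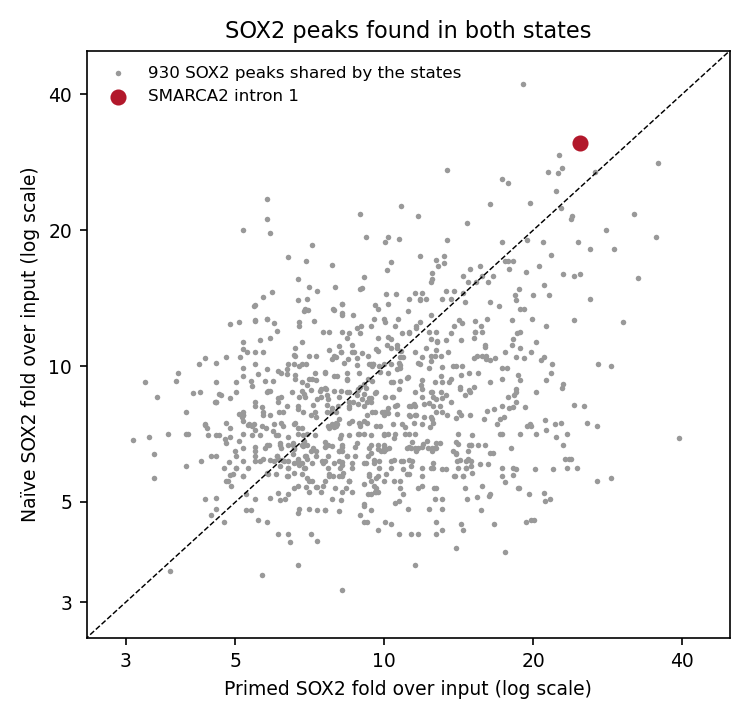
Fold over input of the 930 naïve SOX2 peaks that overlapped a primed SOX2 peak, with the primed value on the horizontal and the naïve value on the vertical log axis. Each grey point is 1 pair of peaks, the dashed line marks equal fold, and the red point is the SMARCA2 intron 1 site at 24.8 primed and 31.2 naïve, the second highest naïve value.

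All 4 antibodies met at this site in naïve cells. The naïve BRG1 peak chr9:2016264-2019439 was 3176 bp wide with a fold of 3.31. The naïve BAF155 peak chr9:2017324-2019494 was 2171 bp wide with a fold of 3.48. The naïve BRM peak chr9:2018519-2019445 was 927 bp wide with a fold of 3.2, near the list median of 3.27. Thus SOX2 was far above its list median in fold here, while the 3 BAF subunits were not among the highest peaks of theirs, at fold percentiles of 78.8, 86.1 and 43.8. By width these BRG1, BAF155 and BRM peaks were among the wider ones, ranking 339 of 57884, 1702 of 62338 and 1222 of 17413.

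In primed cells the same position held BRG1 and BAF155 together with SOX2. The primed BRG1 peak chr9:2018917-2019059 was only 143 bp wide, with a fold of 3.29 against a list median of 3.54, and it contained both SOX2 summits. The primed BAF155 peak chr9:2014376-2019400 was 5025 bp wide, with a fold of 3.87 against a list median of 3.28, and ran without a break from upstream of the main start to the SOX2 site. The site was thus overlapped by all 7 lists. Of the 1940 naïve SOX2 peaks, 14.9% were overlapped by all 6 other lists, so this arrangement was not particular to SMARCA2.

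The main start of SMARCA2, 3.72 kb away, was occupied by BRG1 and BAF155 in both states but lacked BRM and SOX2. Naïve BRG1 had a fold of 2.27 at chr9:2014964-2015591 and naïve BAF155 a fold of 2.36 at chr9:2014829-2015491, both low in their lists (fold percentiles 0.588 and 2.63). Primed BRG1 had a fold of 3.22 at chr9:2014930-2015177, and the wide primed BAF155 peak covered the start. Across protein-coding genes, a peak within 1 kb of the main start was found for 61.7% in naïve BRG1, 61.8% in naïve BAF155, 29.8% in primed BRG1 and 69.1% in primed BAF155. A naïve BRM peak was found there for 17.4%, and neither SMARCA2 nor SMARCA4 was among them.

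**Figure D2:**
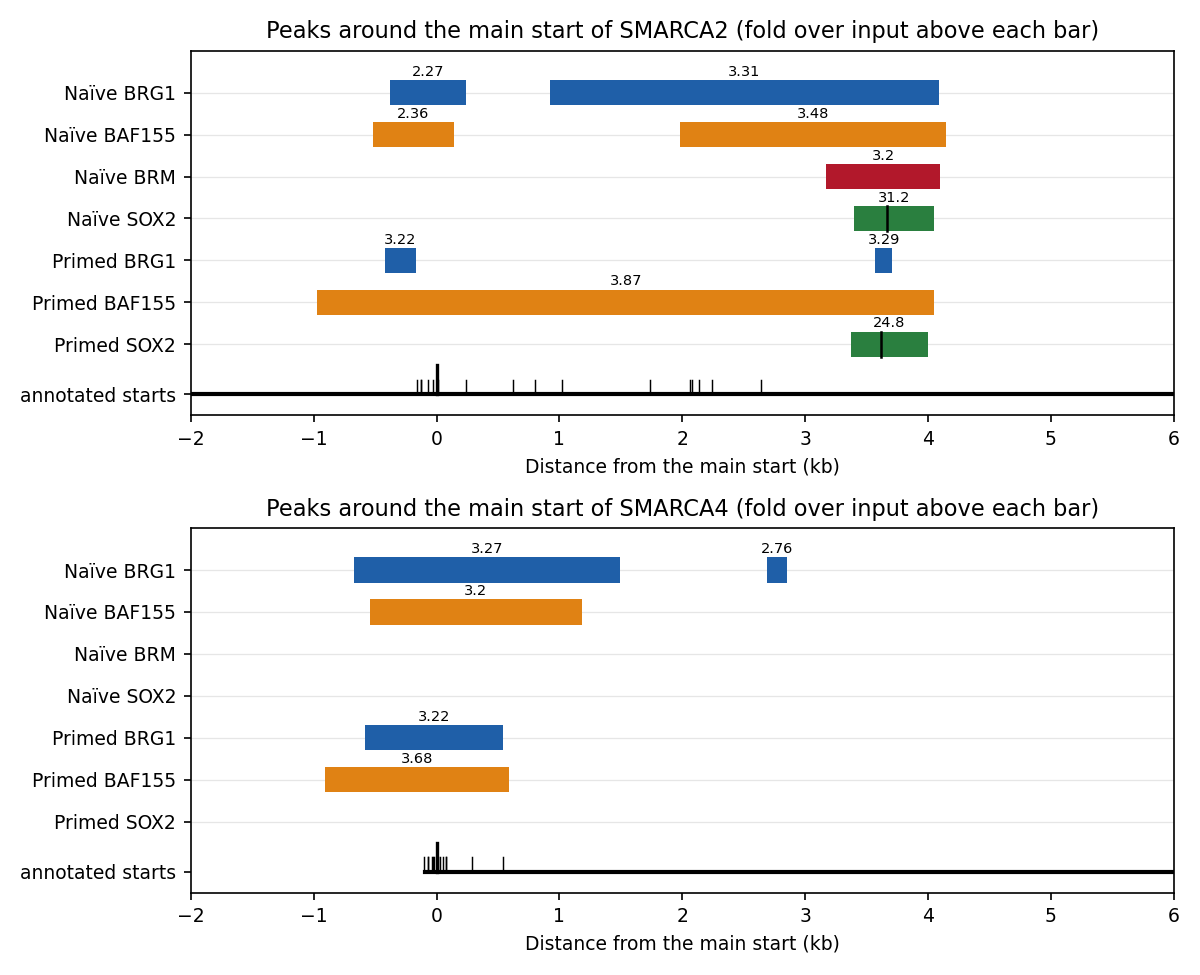
Peaks from 2 kb upstream to 6 kb downstream of the main start of SMARCA2 (top) and SMARCA4 (bottom), drawn to scale against distance in kb, with the fold over input above each bar. Black lines in SOX2 bars are summits and ticks on the gene line are annotated starts, the tall tick being the main start. All 7 lists meet near 3.7 kb in SMARCA2, whereas SMARCA4 has BRG1 and BAF155 of both states at its start and neither BRM nor SOX2.

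The main start of SMARCA4 was covered by BRG1 and BAF155 of both states, with a naïve BRG1 peak of 2164 bp and a primed BRG1 peak of 1119 bp. Naïve BRG1 spanned chr19:10960358-10962521 with a fold of 3.27, and naïve BAF155 spanned chr19:10960495-10962213 with a fold of 3.2. Primed BRG1 spanned chr19:10960452-10961570 with a fold of 3.22, and primed BAF155 spanned chr19:10960118-10961618 with a fold of 3.68. These values were above the list medians for all but primed BRG1. The merged common region was 2404 bp long.

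BRM, the product of SMARCA2, was listed at both loci in naïve cells, away from the main starts. A naïve BRM peak within the window was found for 70.2% of protein-coding genes, so its presence at both members is a frequent state. SMARCA2 had 3 such peaks. Besides the intron 1 site, these were chr9:1996237-1996420, at −19.02 kb from the main start, with a fold of 3.17, and chr9:2241618-2242024, 226.47 kb downstream of the main start and beyond the 3′ end of the gene, with a fold of 2.5.

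SMARCA4 had 2 naïve BRM peaks. The peak at chr19:11014569-11014834 lay in intron 16, 53.67 kb downstream of the main start, with a fold of 3.44. The other, chr19:11137672-11138107, had a fold of 3.69 and lay near the edge of the window in an intron of SPC24 (ENSG00000161888.12). Both exceeded the list median of 3.27, whereas none of the 3 at SMARCA2 did. All 5 peaks fell within naïve BAF regions, which are the merged BRG1 and BAF155 peaks of the state, and the same was true of 94.3% of all 17413 naïve BRM peaks. Only 2 of 66 SMARCA2 starts and 0 of 47 SMARCA4 starts had a naïve BRM peak within 1 kb, and the 2 starts shared 1 peak.

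The SMARCA4 intron 16 site is shown because it is the BRM peak inside the gene of the other ATPase. It is given as the whole BRM peak, chr19:11014569-11014834, hg38 plus strand. No SOX, octamer, KLF, TFAP2 or ZIC match was found in it, so it has no capitals.
SMARCA4 intron 16 BRM site: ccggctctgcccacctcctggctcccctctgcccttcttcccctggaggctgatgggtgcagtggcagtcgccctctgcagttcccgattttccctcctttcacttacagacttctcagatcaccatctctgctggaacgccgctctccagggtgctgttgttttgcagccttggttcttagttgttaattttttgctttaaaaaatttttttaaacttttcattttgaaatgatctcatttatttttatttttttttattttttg

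Naïve BRG1 (fold 2.95) and naïve BAF155 (fold 3.38, the highest of its list at this locus) overlapped the intron 16 BRM peak, and no primed peak did. The −log10 q of this BRM peak was 1.41, close to 1.01, the lowest in its list. That of the BRG1 peak was 1.36 and that of the BAF155 peak 2.26. In primed cells, the BRM list had 167 peaks in total and 0 at either locus. That list gives positions without fold or q. Given its length, the absence of primed BRM from these loci cannot be read as loss of binding.

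The remaining SOX2 peaks were close to the list medians in fold. A second naïve SOX2 peak of the SMARCA2 window lay beyond the 3′ end of the gene, with a fold of 7.03 and rank 1026 of 1940. It coincided with naïve BRG1 (fold 3.32) and naïve BAF155 (fold 2.85), and with no BRM or primed peak. At SMARCA4 no naïve SOX2 peak was found in the window, and the nearest lay 2090 kb from the gene body. The primed SOX2 peak of that window, chr19:11137710-11138003, had a fold of 6.51 and rank 5099 of 9290. It overlapped naïve BRG1 (fold 2.83), naïve BAF155 (fold 3.16) and naïve BRM, but no primed BRG1 or BAF155 peak.

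A naïve SOX2 peak lay within the window of 13.2% of protein-coding genes, a primed SOX2 peak in that of 42.6%, and both in that of 9.47%. SMARCA2 belonged to all 3 sets and SMARCA4 to the second. Because the loci were picked with the SMARCA2 peak in view, nothing is read from this position of SMARCA2.

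The map of both loci shows how the peaks were distributed over the gene bodies. Of the 43 peaks at SMARCA2, 10 lay between 1 kb upstream and 5 kb downstream of the main start, against 5 of 44 at SMARCA4.

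**Figure D3:**
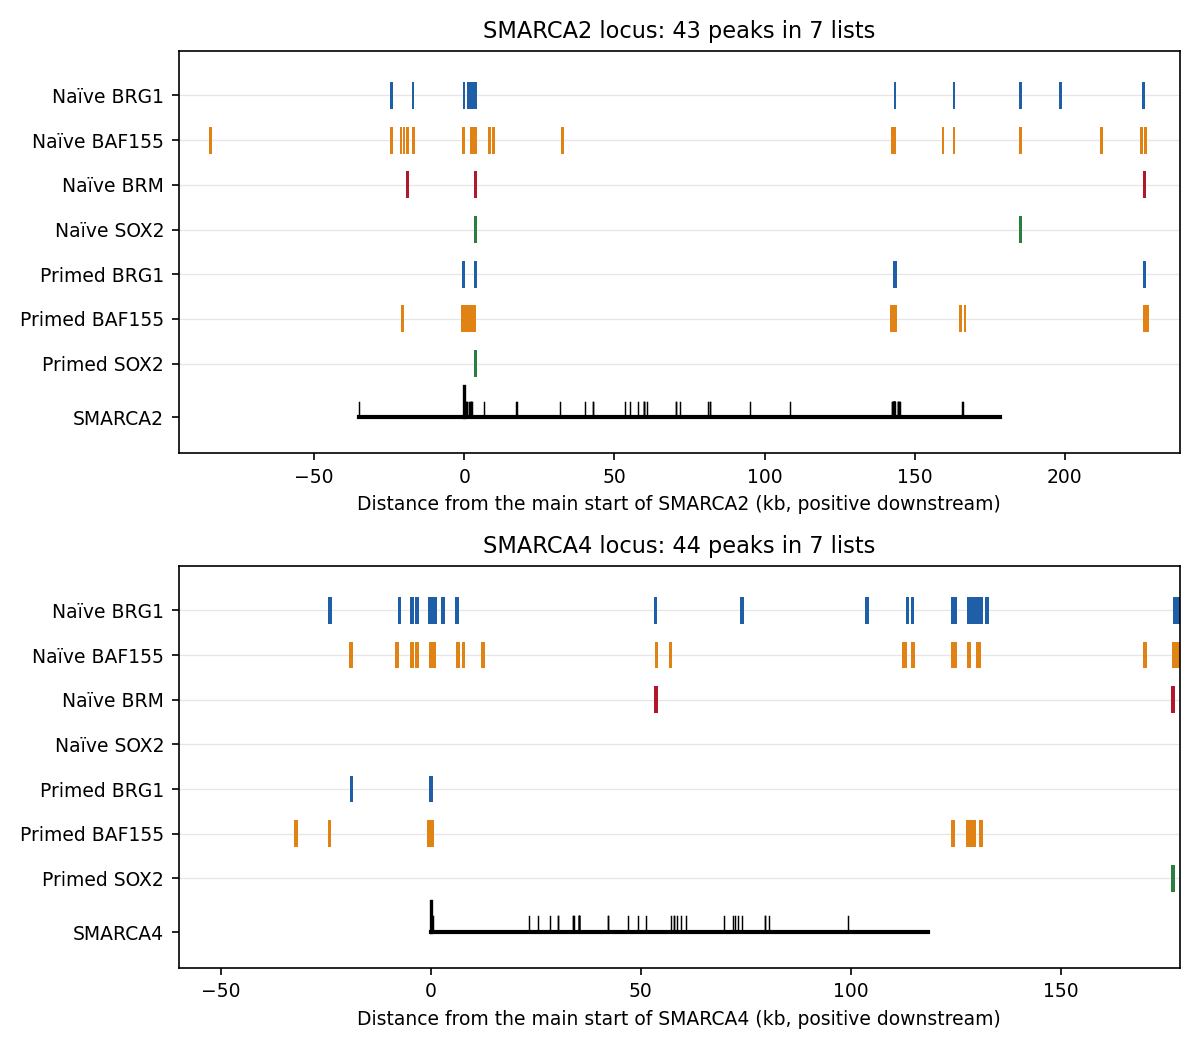
Peaks of the 7 lists at SMARCA2 (top, 333 kb window) and SMARCA4 (bottom, 238 kb window) by distance in kb from the main start, with short peaks widened to 0.9 kb to be visible. The black line is the gene body with its annotated starts as ticks. In SMARCA2, peaks gather around the main start, from about −24 to −17 kb, near +143 kb and near +226 kb. In SMARCA4, they gather around the main start and downstream, beyond the 3′ end of the gene. The primed lists shown, without BRM, hold 11 and 9 peaks, against 32 and 35 in the naïve lists with BRM.

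For BRG1 and BAF155, the naïve lists gave more peaks than the primed lists at both genes. At SMARCA2 the naïve lists held 9 BRG1, 18 BAF155, 3 BRM and 2 SOX2 peaks, and the primed lists held 4 BRG1, 6 BAF155 and 1 SOX2. At SMARCA4 the naïve lists held 16 BRG1, 17 BAF155, 2 BRM and 0 SOX2 peaks, and the primed lists held 2 BRG1, 6 BAF155 and 1 SOX2. Over the whole SOX2 lists the naïve to primed ratio was 0.209. For BRG1 the naïve to primed ratio was 2.25 at SMARCA2 and 8.0 at SMARCA4, against 3.71 over the whole lists of 57884 and 15611 peaks. The naïve excess of BRG1 peaks was thus also present in the whole lists, with a smaller ratio at SMARCA2 and a larger one at SMARCA4.

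BAF155 differed, because its lists were of similar length (62338 naïve and 58352 primed, ratio 1.07) while the ratio was 3.0 at SMARCA2 and 2.83 at SMARCA4. At SMARCA2 this count did not reflect the covered length. The naïve BAF155 peaks covered 10.2 kb and the primed peaks 12.0 kb, a ratio of 0.847, with median widths of 318 bp and 1650 bp. Naïve BAF155 at SMARCA2 thus formed many short peaks and primed BAF155 few wide ones. Of these, 4 of 18 naïve and 4 of 6 primed peaks exceeded the median fold of their lists. Most naïve BAF155 peaks at both loci had a −log10 q below 3. Requiring at least 3 left no naïve excess of BAF155 peaks at SMARCA2, while an excess remained at SMARCA4. At SMARCA4 the covered lengths were 12.2 kb and 6.5 kb, a ratio of 1.88, against 0.954 over the whole lists.

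BAF regions were compared between the states with the overlap the study used, at least 25% of either region. The regions were merged here from the lists as given and are more numerous than those the study reports. The shares below are therefore not its values. SMARCA2 had 13 naïve-only, 2 primed-only and 4 common regions, and SMARCA4 had 17, 1 and 5. Of the naïve regions, 6 of 19 at SMARCA2 were shared with primed cells (31.6%, interval 12.6 to 56.6) and 5 of 22 at SMARCA4 (22.7%, 7.82 to 45.4), against 37.4% of all naïve regions. Of the primed regions, 4 of 6 (66.7%, 22.3 to 95.7) and 6 of 7 (85.7%, 42.1 to 99.6) were shared, against 48.2% of all. These intervals are wide and neighbouring regions of a locus are not independent, so no difference from the lists is read from them. At SMARCA2, 8 of the 13 naïve-only regions were intronic and 5 intergenic, and at SMARCA4 13 of the 17 were intronic.

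The common regions included both main starts and, at SMARCA2, an internal start cluster and a distal site. Altogether 24 annotated SMARCA2 starts lie between chr9:2157680 and 2160613, 142.33 to 145.27 kb from the main start and within intron 27 of the main transcript. They give rise to shorter transcripts. BRG1 and BAF155 occupied this cluster in each state, with folds of 2.75 and 2.62 in naïve cells and 3.3 and 3.81 in primed cells, and neither BRM nor SOX2 did. The common region there, chr9:2157165-2159342, was 2178 bp long.

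The distal common region, chr9:2241144-2243452, lay 226.95 kb downstream of the main start of SMARCA2 in intergenic sequence and had BRG1 and BAF155 of both states with naïve BRM. Its folds were 2.4 for naïve BRG1, 2.25 for naïve BAF155, 3.27 for primed BRG1 and 2.97 for primed BAF155, each below the list median. The longest common region of SMARCA2 ran from the main start to the intron 1 SOX2 site, chr9:2014376-2019494, 5119 bp.

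Naïve-only regions at SMARCA2 had a median length of 294 bp. The longest, chr9:2178062-2178759 in intron 29, was 698 bp, with BRG1 (fold 2.84) and BAF155 (fold 3.01). The highest naïve fold of either subunit at this locus was at another, chr9:1990882-1991144, at −24.33 kb from the main start and within an intron of the transcript that starts farthest upstream. BRG1 had a fold of 3.53 there (percentile 87.0) and BAF155 a fold of 4.1 (percentile 95.8), without BRM or SOX2. The only naïve-only region within 1 kb of a SMARCA2 start was a BAF155 peak of fold 2.6 in intron 5, chr9:2048031-2048235.

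The 2 primed-only regions of SMARCA2 lay side by side, around a pair of annotated starts 165.89 and 166.22 kb from the main start. They were chr9:2180317-2180984 in intron 29, 668 bp long with a BAF155 fold of 3.16, and chr9:2181726-2182544 in intron 30, 819 bp long with a BAF155 fold of 4.06. The latter was the highest primed BAF155 value at the locus. BRG1 was not listed at either in primed cells. The next highest primed BAF155 peak was chr9:1994223-1995376, with a fold of 3.89, where naïve BAF155 had 2 short peaks with folds of 2.58 and 2.29.

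Naïve-only regions at SMARCA4 had a median length of 561 bp. Several flanked the promoter. The highest naïve BRG1 fold of the locus, 3.43, was at −4.58 kb from the main start (chr19:10956292-10956603), with BAF155 (fold 2.77), and a BRG1 peak of fold 3.24 lay at −7.52 kb, next to but not overlapping a BAF155 peak of fold 2.49. Within the gene, a BAF155 peak of fold 2.69 in intron 16 and a BRG1 peak of fold 2.91 in intron 29 lay within 1 kb of annotated internal starts. Beyond the end of the main transcript but still within the gene body, naïve BAF155 had a fold of 3.22 at chr19:11075836-11076068, with BRG1 (fold 3.08). The longest naïve-only region was the one in SPC24, 2230 bp.

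The SMARCA4 window also contains neighbouring genes, and some of its peaks belong to their starts. The single primed-only region, chr19:10928378-10929225, covered the starts of YIPF2 and TIMM29, with a BAF155 fold of 3.07 and no naïve peak. TIMM29 encodes a component of the mitochondrial inner membrane import machinery. Primed BRG1 had 1 further peak at the locus besides the SMARCA4 start, chr19:10941906-10942262, with a fold of 3.14, shared with naïve BAF155 (fold 2.28). The primed BAF155 peak next in fold to that at the start had a fold of 3.43, at chr19:10936720-10936969.

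Fold values at both loci were otherwise unremarkable for their lists. At SMARCA2, 3 of 9 naïve BRG1 and 4 of 18 naïve BAF155 peaks exceeded their list medians of 2.93 and 2.89, and at SMARCA4, 6 of 16 and 6 of 17 did. Primed BRG1 was below its list median of 3.54 in all 4 peaks at SMARCA2 and both at SMARCA4. Primed BAF155 exceeded 3.28 in 4 of 6 peaks at SMARCA2 and 2 of 6 at SMARCA4. The plot of fold by list shows the intron 1 SOX2 pair as the only values above the top 5% line of their lists apart from the naïve BAF155 peak upstream of SMARCA2.

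**Figure D4:**
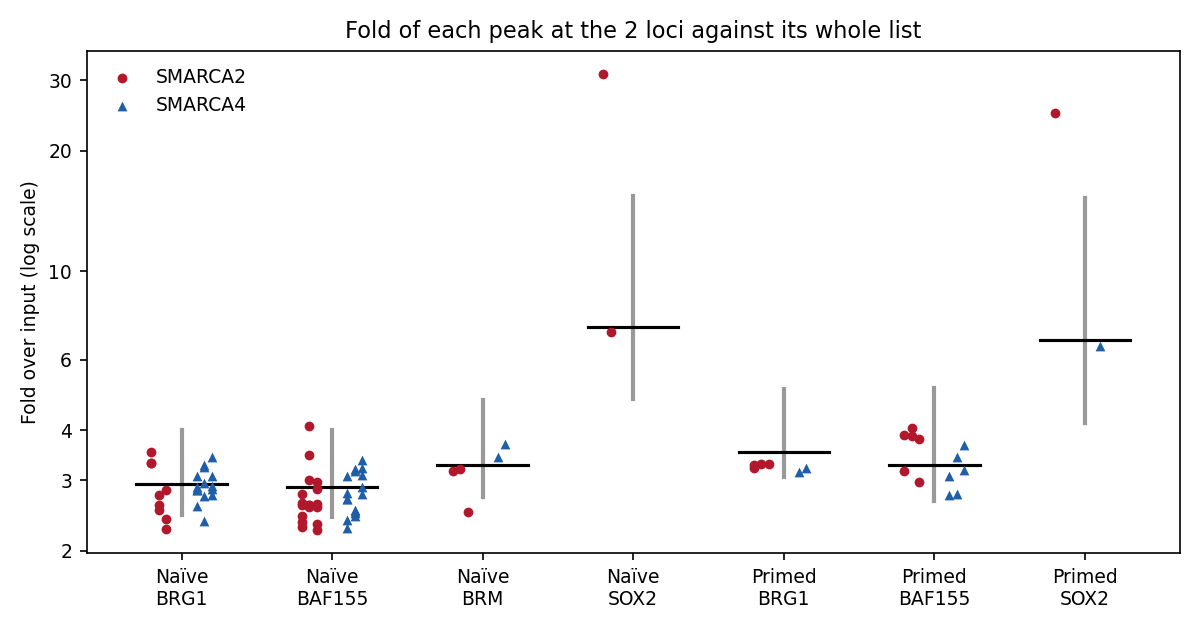
Fold over input (log axis) of each peak at SMARCA2 (red circles) and SMARCA4 (blue triangles) for the 7 lists, with the median (black bar) and the 5th to 95th percentile (grey line) of all peaks in each list. The naïve and primed SOX2 peaks of SMARCA2 intron 1, at 31.2 and 24.8, lie above 15.4 and 15.2, the 95th percentiles, while most BAF peaks lie near or below the median.

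Peak density was then set beside that of other genes, with each gene given the same flanks. For naïve BRG1, SMARCA2 had 2.7 and SMARCA4 6.71 peaks per 100 kb, against a median of 3.31 over 20033 genes. For naïve BAF155 the values were 5.4 and 7.13, against 3.67. Naïve BRM gave 0.9 and 0.839, against 0.777. In primed cells BRG1 gave 1.2 and 0.839, against 0.746, and BAF155 gave 1.8 and 2.52, against 3.06. SMARCA4 was thus denser than the median gene in naïve BRG1 and BAF155, with 23.5% and 24.9% of genes at or above it, and both members were below the median in primed BAF155. Against genes with windows of like length (1469 of 267 to 416 kb for SMARCA2 and 3309 of 191 to 298 kb for SMARCA4), the order changed for naïve BRG1 at SMARCA2, where 2.7 exceeded a median of 1.92. The share of such genes at or above SMARCA2 was 35.8% for naïve BRG1, in place of 57.3%, and 13.2% for naïve BAF155, in place of 35.6%. For SMARCA4 it was 9.19% and 10.8%. In primed BAF155, SMARCA4 then lay at the median (2.52 against 2.54), and SMARCA2 remained below it (1.8 against 2.24). For naïve SOX2, 7.44% of genes were at or above the 0.6 peaks per 100 kb of SMARCA2, a value that the choice of locus used.

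**Figure D5:**
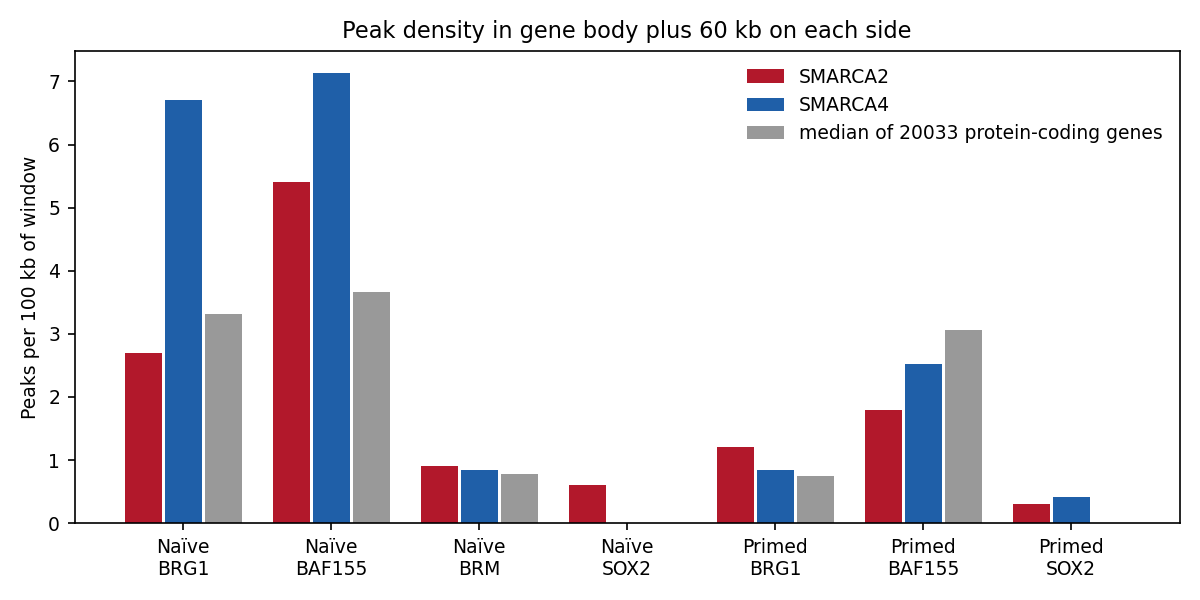
Peaks per 100 kb of gene body plus 60 kb on each side for SMARCA2 (red), SMARCA4 (blue) and the median protein-coding gene (grey) in each of the 7 lists. SMARCA4 reaches 6.71 and 7.13 in naïve BRG1 and BAF155, above the medians of 3.31 and 3.67, and both genes fall below the median of 3.06 in primed BAF155, although SMARCA4 lies at the median of genes of like length. The medians of both SOX2 lists are 0.

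The genes whose densities over the 7 lists were most like SMARCA2 were GPD2, HOPX, ERC1, RNF111 and NIN, with Euclidean distances of 0.433 to 0.611 on the log2 scale of peaks per 100 kb plus 1. For SMARCA4 they were NUMB, ADCY10, MATR3, RUNX3 and BICD2, with distances of 0.282 to 0.395. The 2 members were 1.38 apart, and the median distance to all genes was 2.07 for SMARCA2 and 2.1 for SMARCA4. Of genes with separate windows, 12.6% were closer to SMARCA2 than SMARCA4 was, and 16.2% were closer to SMARCA4 than SMARCA2 was. The distances include naïve SOX2 density, a value that the choice of locus used. Each comparison rested on 1 list per antibody and state.

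The other genes of the machinery were counted in the same way, over 5 other remodeler ATPases (SMARCA1, SMARCA5, CHD3, CHD4 and INO80) and 26 BAF subunits. Of these 31 genes, 29 had naïve BRG1, 27 naïve BAF155, 22 primed BRG1 and 31 primed BAF155 within 1 kb of the main start. The shares over all protein-coding genes were 61.7%, 61.8%, 29.8% and 69.1%, in this order. SMARCA2 and SMARCA4 also had a peak of each of these lists there. Naïve BRM was at the main start of 6 and in the window of 23. These counts lie near the shares over all protein-coding genes, 17.4% and 70.2%. SMARCA2 and SMARCA4 had naïve BRM in the window only. A naïve SOX2 peak lay in the window of 2, ARID1B and BCL7C, the former encoding a DNA-binding subunit of the canonical complex, and each also had a primed SOX2 peak. Primed SOX2 lay in the window of 19. Over all protein-coding genes, 13.2% had naïve SOX2 in the window, 42.6% primed SOX2 and 9.47% both. None of these counts was tested. The median density of the 31 genes was 1.36 peaks per 100 kb for naïve BRM, above either member, and 5.44 for naïve BAF155, between them.

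The labels of the states were looked at through 4 marker genes, although binding is not expression. SUSD2, a surface marker of naïve cells, had 10 BRG1 and 11 BAF155 peaks in its naïve window and 2 and 3 in primed cells, and KLF17, a naïve transcription factor, had 5 and 7 against 0 and 2. SFRP2, a secreted WNT antagonist that marks primed cells, had 3 and 2 in naïve against 3 and 5 in primed cells, and SOX11 had 4 and 3 against 5 and 4. Naïve BRM peaks numbered 7, 4, 1 and 0 at the 4 genes in this order. Over the whole lists the naïve to primed ratio was 3.71 for BRG1 and 1.07 for BAF155. A naïve BRM peak lay in the window of 70.2% of protein-coding genes. The marker counts were not tested.

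The peaks on each side of the window edges were as follows. At SMARCA2 the outermost members were 10.3 kb inside the upstream edge (fold 2.77) and 10.2 kb inside the downstream edge (fold 2.97), and the nearest excluded peaks were chr9:1871680-1872671, 47.6 kb outside, and chr9:2272661-2273275, both with a fold of 2.79. At SMARCA4 the outermost upstream member was 27.4 kb inside (fold 3.07) and the nearest excluded peak 8.29 kb outside (fold 3.16). A naïve BRG1 peak of fold 2.83 straddled the downstream edge, and the nearest excluded peak there was 2.74 kb outside (fold 3.23). The nearest excluded SOX2 peaks to SMARCA2 were 87.4 kb from the gene body in each state, with folds of 11.9 naïve and 11.2 primed.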

How the data were processed

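The 14 samples were WIBR3 embryonic stem cells, with 10 ChIP-seq peak lists and 4 inputs whose signal was not analysed here. Per the methods of the study and the labels, the authors trimmed reads (trim_galore), aligned them to hg38 (Bowtie2 2.3.4, in the submitters' processing notes with FastQC 0.10.1 and SAMtools 0.1.19), removed duplicates and called peaks against input with MACS2. Peaks were narrow for SOX2 (paired-end reads) and broad for BRG1, BAF155 and BRM (single-end reads), and the SOX2 and BAF libraries were sequenced separately, so widths and folds were compared only within an antibody. Each deposited list gives positions, a peak score, a fold enrichment (a ratio over input), and −log10 p and −log10 q values as the authors' peak caller wrote them, except the primed BRM list, which gives positions only. Whether replicates were pooled before calling is not given in the sources used here. The lists carry no read counts, and library read totals were not used here, so a missing peak means only that none passed the authors' threshold.

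Unplaced contigs were left out, and no peak ended beyond an hg38 chromosome. Genes came from GENCODE 44, and sequences from hg38 and RefSeq promoters, of which 4 matched SMARCA2 and 2 SMARCA4. BRG1 and BAF155 peaks were merged into BAF regions for each state and compared with bedtools 2.31.1 at 25% of either region. Motifs were searched on both strands in 300 bp midpoint windows. Overlap steps were tested on simulated data. Text peaks were all SOX2 peaks, those within 1 kb of a member start, the 3 of highest fold per list and locus, and the longest BAF region per class, apart from a few items that are not reported here. The members, gene lists and rules were chosen with earlier results of these data known. Alternatives varied the overlap, the q and fold thresholds, the flank, the list length, the start window and the transcript. Tables used pandas 2.3.3, numpy 2.4.6 and scipy 1.17.1, and plots matplotlib 3.10.9.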

Additional observations from a re-analysis of the deposited data

How the results depend on the processing

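Of 70 values recomputed, 43 stayed within 1.5 times the reported count and 27 did not. Requiring a −log10 q of at least 3 left SMARCA2 with 3 naïve-only and 1 common region and 1 naïve BRM peak, and SMARCA4 with 5 naïve-only and 1 common region and 1 naïve BRM peak. Requiring a fold of at least 4 left SMARCA2 with 1 naïve-only, 1 primed-only and 0 common regions, 0 naïve BRM peaks and 0 starts with one, and SMARCA4 with 0 naïve-only, 0 primed-only and 0 common regions and 0 naïve BRM peaks. All 3 SOX2 peaks at SMARCA2 and the 1 in the SMARCA4 window passed both thresholds. With lists of equal length, SMARCA4 had 11 naïve-only, 3 primed-only and 3 common regions and 0 primed SOX2 peaks. A 20 kb flank left SMARCA4 with 0 primed-only regions, 1 naïve BRM peak and 0 primed SOX2 peaks. An overlap of 50% of both regions gave 2 primed-only regions at SMARCA4. A 5 kb window gave 18 SMARCA2 and 6 SMARCA4 starts with a naïve BRM peak. Windows built on the main transcript, an alternative chosen after seeing the data, left SMARCA4 with 1 naïve BRM peak and 0 primed SOX2 peaks, since the SPC24 intron site then fell outside. Thresholds and narrower windows leave fewer peaks by construction, but a common region can then count as state-only, and primed-only regions at SMARCA2 went from 2 to 3 at the q threshold. For the other changes the cause was not tested.

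No paired analysis was possible because each antibody and state had 1 independent list and no result came from a test. For the same reason no list was left out in turn. Counts at these loci are small, and the read depth that limits peak detection was not used here.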
